A study of Saccharomyces cerevisiae with 18 samples.

Results

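The cytosolic large ribosomal subunit of budding yeast (Saccharomyces cerevisiae) was examined through the transcripts of its protein genes. The members are the rows of the deposited count table whose RefSeq symbol begins with RPL and a digit, together with the stalk genes RPP0, RPP1A, RPP1B, RPP2A and RPP2B. RefSeq lists 81 such genes, of which 80 had a row among the 5143 in the table and all 80 passed the filter on low counts. The remaining gene, RPL21A, is not analysed here. Genes of the mitochondrial ribosome were left out.

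The 6 RNA-seq libraries were 3 of wild-type (WT) cells and 3 of ten1-31, a temperature-sensitive mutant in TEN1. Ten1 belongs with Cdc13 and Stn1 to a complex that protects telomeres. Both genotypes were kept at 25 °C overnight and then grown at 34 °C for nearly 5 h, so the WT libraries are from the raised temperature too. The labels do not give the strain background, other alleles, or whether the replicates were separate clones, so the p-values measure the spread between these 6 libraries. The series title names an effect of the complex on transcription by RNA polymerase II, the enzyme that makes the messenger RNA of ribosomal protein genes.

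The large subunit joins amino acids into protein at its peptidyl transferase centre and releases the chain through an exit tunnel. Most of its proteins in yeast are encoded by a pair of duplicated genes, named A and B, and the promoters of these genes are known for binding Rap1, Fhl1 and Ifh1. In growing yeast the ribosomal protein genes are among the most strongly transcribed genes, and they are known to be turned down together when growth slows or stress sets in.

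Library totals ranged from 10469608 to 14442999 counts, and the lowest count of any member in any library was 625, so counting error was small for every member. CPM is edgeR's count of reads relative to the library size after TMM scaling. It is a relative scale: an equal loss of all transcripts per cell would not show. In these bulk cultures, fewer cells of a kind and less RNA per cell cannot be told apart. The ten1-31 libraries stood apart over whole chromosomes. Relative to the WT mean, the median log2 CPM of the genes on chromosome VIII, ribosomal protein genes excluded, was 0.62 and 0.46 in ten1-31 replicates 1 and 2 but 0.01 in replicate 3. On chromosome IX it was 0.37, 0.29 and 0.56 in replicates 1, 2 and 3, and on chromosome XI 0.39, 0.45 and 0.47. The other 13 chromosomes lay between -0.08 and 0.06 in every ten1-31 library. No DNA was measured in the files used here, so chromosome copy number was not tested.

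Large subunit transcripts fell in the mutant. Of the 80 members, 53 were called lower in ten1-31 and 2 were called higher at an adjusted p under 0.05 (edgeR quasi-likelihood test, adjusted over all 5133 rows tested), and 25 were not called. Over all rows, 26.2% were called lower and 24.3% higher. Most falls were moderate: the median log2 fold change of the members was -0.36, a level 0.780 times that of WT, beside -0.00377 for all rows, and the fitted values ran from -1.05 to 0.61. A fall of at least 2-fold was called for 2 of the 80 members, RPL3 and RPL15A, beside 112 of the 5133 rows tested. All mutant values lay below all WT values for 57 members and above them for 1, beside 31.6% and 29.0% of all rows.

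**Figure D1:**
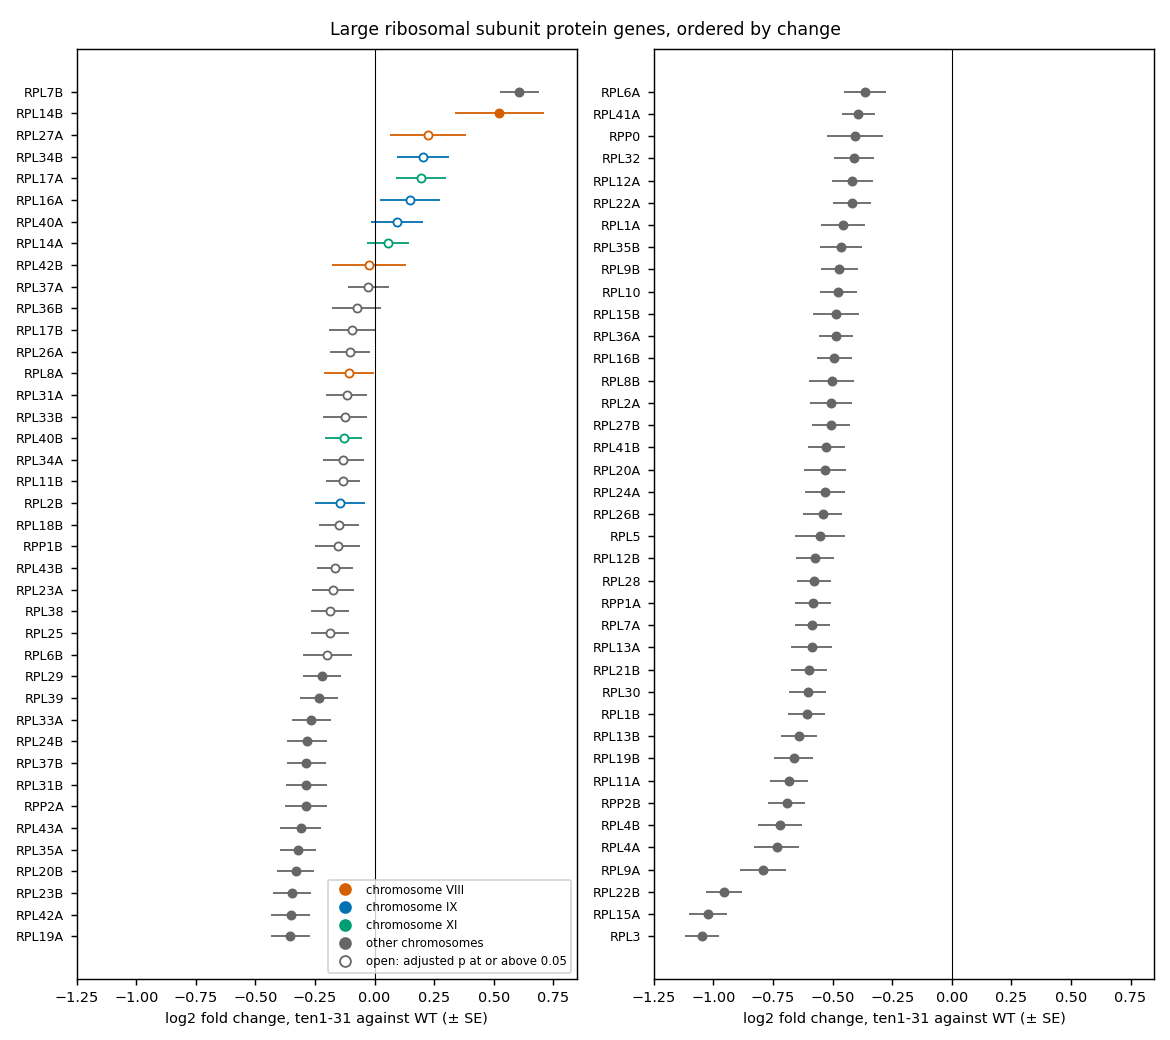
Log2 fold change of 79 of the 80 large subunit genes (x axis, ten1-31 against WT, bars ± SE of the edgeR fit, 3 libraries per genotype), ordered by change over both panels. Filled points passed an adjusted p of 0.05; the 11 genes on chromosomes VIII, IX and XI are coloured, and none of them is among the 53 called lower.

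Together the 80 genes took up 7.98%, 7.27% and 8.07% of all counts in WT replicates 1, 2 and 3, and 6.22%, 5.98% and 6.25% in ten1-31 replicates 1, 2 and 3. The highest mutant library thus lay below the lowest WT library, which was replicate 2. The same replicate was the nearest to the mutant gene by gene: relative to the WT mean, the median of the 69 members off chromosomes VIII, IX and XI was 0.06, -0.13 and 0.07 in WT replicates 1, 2 and 3, against -0.40, -0.44 and -0.42 in ten1-31. In the share of counts and in this median, the mutant libraries were closer to each other than the WT libraries were. Without WT replicate 2 the test called 63 members lower, and without the other libraries in turn it called from 38 to 51, the fewest without ten1-31 replicate 2. Calls over all rows, in either direction, moved too. They numbered 2591 with all libraries, 2596 without WT replicate 2, 2974 without WT replicate 1 and 1824 without ten1-31 replicate 2.

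The genes grouped with the peptidyl transferase centre had a median log2 fold change of -0.61. The role groups here and below were put together with the values known. RPL3 (YOR063W, chromosome XV, 444686 to 445849 in the R64 build) encodes a core protein that reaches towards the centre and was the most abundant member by CPM. It measured 7085, 6468 and 6820.5 CPM in WT replicates 1, 2 and 3 and 3358, 3182 and 3311 CPM in ten1-31. The groups were far apart, with every mutant library near the same level, and the transcript was 2.07-fold lower (log2 fold change -1.05, SE 0.07, edgeR adjusted p = 5.45e-05). RPL4A and RPL4B encode the protein with a loop lining the exit tunnel. RPL4A gave 1122, 919 and 942 CPM in WT libraries and 594, 573 and 626 CPM in mutant libraries (log2 fold change -0.73, SE 0.10, edgeR adjusted p = 0.000681). RPL4B gave 549.8, 445 and 467 CPM in WT libraries and 297, 287 and 303 CPM in mutant libraries (log2 fold change -0.72, SE 0.09, edgeR adjusted p = 0.000661). Both copies fell by nearly the same factor. RPL10, for a protein that joins the subunit late in its assembly, measured 3192 ± 179 against 2295 ± 102 CPM (SD, n = 3 per genotype; log2 fold change -0.48, SE 0.08, edgeR adjusted p = 0.00178). Of the 6 genes grouped with the centre (RPL2A, RPL2B, RPL3, RPL4A, RPL4B and RPL10), 5 were called lower. The exception was RPL2B on chromosome IX, at -0.14 (edgeR adjusted p = 0.280). The share called lower is 83.3%, beside 66.25% of all members and 26.2% of all rows. It was 76.8% for the 69 members off chromosomes VIII, IX and XI. RPL3, RPL4A and RPL4B are among the 6 largest falls and were placed in the group with the values known. The group's share and median therefore cannot show that the centre fell more than other members.

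Some members outside that group changed by a similar amount. RPL15A (YLR029C, chromosome XII, 201976 to 202590) encodes a protein buried in the ribosomal RNA. It gave 2974, 3146 and 3433 CPM in WT and 1605, 1522 and 1567 CPM in ten1-31, without overlap (log2 fold change -1.02, SE 0.08, edgeR adjusted p = 9.08e-05). RPL22B (YFL034C-A, chromosome VI, 64243 to 64932), the lesser copy of a pair for an RNA-binding protein that yeast can live without, gave 173, 189 and 202 CPM in WT and 99.2, 96.8 and 95.4 CPM in ten1-31. Every mutant library was close to 97 CPM and all WT libraries were above 170 (log2 fold change -0.96, SE 0.08, edgeR adjusted p = 9.76e-05). RPL9A had 1319.6, 1081 and 1304 CPM in WT and 751, 681 and 706 CPM in ten1-31 (log2 fold change -0.79, SE 0.10, edgeR adjusted p = 0.000549).

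The 5S RNA enters the large subunit as a particle with the proteins of RPL5 and of RPL11A or RPL11B. RPL5 is a gene without a duplicate and had 4015, 3132 and 3256 CPM in WT and 2418, 2299.9 and 2379.7 CPM in ten1-31. Replicate 1 was the highest in WT, and the genotypes did not overlap (log2 fold change -0.55, SE 0.10, edgeR adjusted p = 0.00355). RPL11A went from 575, 541 and 615 to 369, 336 and 373 CPM (log2 fold change -0.68, SE 0.08, edgeR adjusted p = 0.000485). Its duplicate RPL11B was not called, with 479, 448 and 495 CPM in WT and 421, 442 and 434 CPM in ten1-31 (log2 fold change -0.13, SE 0.07, edgeR adjusted p = 0.149). The mutant values of RPL11B were all below the WT values, by little.

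The stalk of acidic proteins binds the translation factors that hydrolyse GTP. RPP0 encodes P0, its base, and had 3555, 2639 and 2817 CPM in WT and 2357, 2204 and 2241 CPM in ten1-31. WT replicate 1 stood above the other two, and the call lay near the threshold (log2 fold change -0.41, SE 0.12, edgeR adjusted p = 0.0213). It was lost when any one ten1-31 library was left out, with an edgeR adjusted p of up to 0.0829. RPP1A and RPP1B encode the P1 proteins. RPP1A measured 729.7 ± 40.2 against 488 ± 17.9 CPM (SD, n = 3 per genotype) and fell (log2 fold change -0.58, SE 0.07, edgeR adjusted p = 0.000650). RPP1B measured 575 ± 66.8 against 516 ± 14.6 CPM (SD, n = 3 per genotype), with overlap between the genotypes (log2 fold change -0.16, SE 0.09, edgeR adjusted p = 0.205). It passed the test only without WT replicate 2 (-0.24, edgeR adjusted p = 0.0384). Of the P2 genes, RPP2B fell from 893, 802 and 925 to 547, 525 and 548 CPM (log2 fold change -0.69, SE 0.08, edgeR adjusted p = 0.000409). RPP2A had 787, 646 and 705 CPM in WT libraries and 592, 561 and 596 in the mutant, a smaller difference (log2 fold change -0.29, SE 0.09, edgeR adjusted p = 0.0274). The RPP2A call was lost without WT replicate 3 or any one ten1-31 library, with an adjusted p of up to 0.124 in edgeR, as well as under scaling to library size alone and without chromosomes VIII, IX and XI. In all, 4 of the 5 stalk genes were called lower (80%, beside 66.25% of all members and 26.2% of all rows). All 5 lie off chromosomes VIII, IX and XI, and 76.8% of the 69 members off those chromosomes were called lower, a share near that of the stalk. RPL12A and RPL12B, whose protein sits at the foot of the stalk, fell too, at -0.42 and -0.57.

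**Figure D2:**
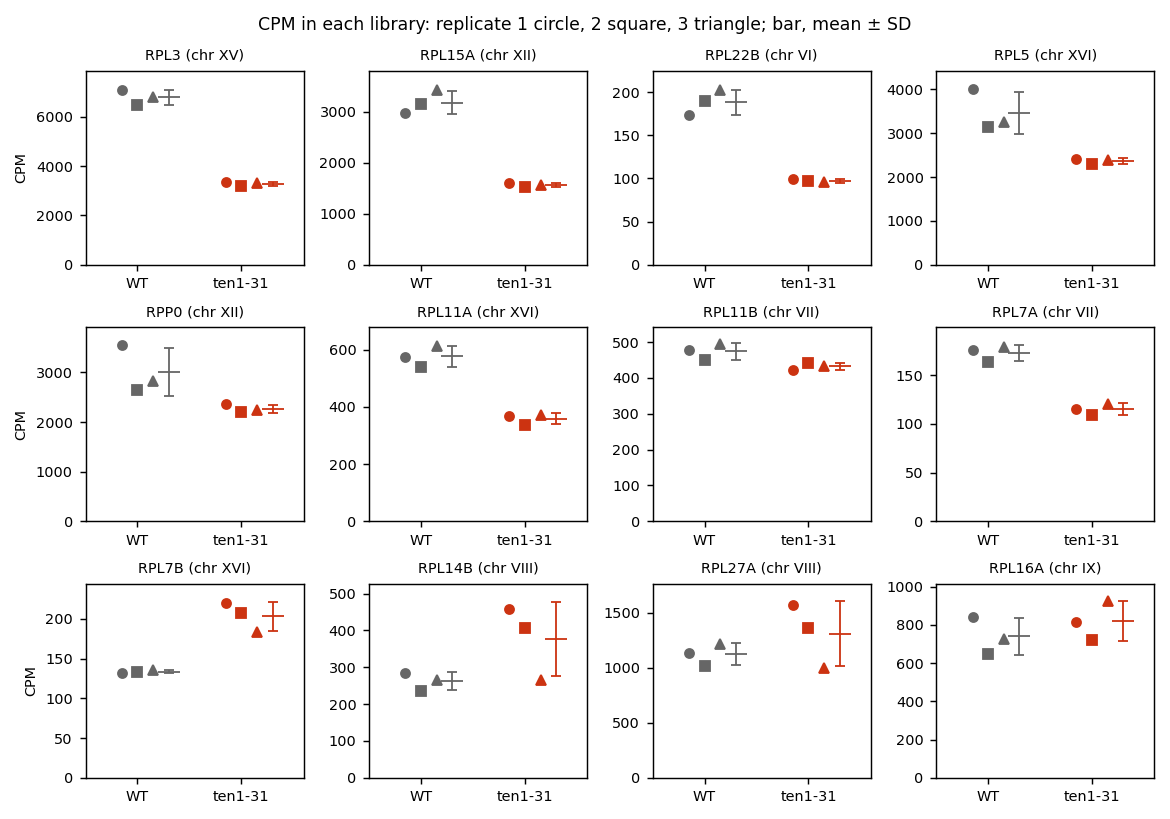
CPM (y axis, from 0) of 12 members in each WT and ten1-31 library, with the mean ± SD of 3 libraries. RPL3, RPL15A and RPL22B separate widely between genotypes, RPL7A and RPL7B move in opposite directions, and RPL14B and RPL27A are high in ten1-31 replicates 1 and 2 but not in replicate 3.

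The proteins around the mouth of the exit tunnel meet the growing chain and the factors that receive it. Of their 12 genes (RPL17A, RPL17B, RPL19A, RPL19B, RPL25, RPL26A, RPL26B, RPL31A, RPL31B, RPL35A, RPL35B and RPL39), 7 were called lower and 0 higher in edgeR, DESeq2 and limma-voom alike. At an unadjusted p under 0.05 it was again 0 higher with each tool, and the set had a median of -0.26. In edgeR 58.3% of the set were called lower, beside 66.25% of all members and 26.2% of all rows. Over all rows 24.3% were called higher. RPL19B and RPL26B were the lowest at -0.66 and -0.54 (edgeR adjusted p = 0.000590 and 0.00141). RPL25, whose protein docks the signal recognition particle, was at -0.19 and was not called (edgeR adjusted p = 0.0801). Among the genes without a duplicate, 9 of 11 were called lower (81.8%), with a median of -0.41. All 11 lie off chromosomes VIII, IX and XI. The 69 members off those chromosomes gave near values, with 76.8% called lower and a median of -0.42, beside 29.6% of all rows there. For the genes without a duplicate, division of reads between copies is no concern. The 2 that were not called were RPL25 and RPL38, at -0.19 and -0.19, and their libraries did not overlap either.

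The members not in a role group were mostly called lower too. RPL1A and RPL1B, for the protein of the mobile stalk beside the exit site for transfer RNA, were at -0.46 and -0.61 (edgeR adjusted p = 0.00457 and 0.000630). RPL28, which has no duplicate and is known for mutations that give resistance to cycloheximide, had 2266, 2128 and 2358 CPM in WT and 1527, 1468 and 1525 CPM in ten1-31. The genotypes were well apart (log2 fold change -0.58, SE 0.07, edgeR adjusted p = 0.000590). RPL30, whose protein is known to block the splicing of its own transcript, had 1212, 1084 and 1235 CPM in WT and 784, 747 and 790.3 CPM in ten1-31 (log2 fold change -0.61, SE 0.08, edgeR adjusted p = 0.000670). Its mutant libraries were also all below the WT libraries. RPL13A and RPL13B were at -0.59 and -0.64, RPL20A and RPL20B at -0.53 and -0.33, RPL24A and RPL24B at -0.53 and -0.28, RPL21B at -0.60 and RPL41B at -0.53, all called lower. Called lower by less were RPL43A at -0.31, RPL37B at -0.29, RPL33A at -0.27 and RPL29 at -0.22, the last near the threshold (edgeR adjusted p = 0.0481). RPL8B, RPL9B, RPL22A, RPL36A, RPL6A, RPL42A and RPL23B were called lower at values from -0.50 to -0.35. RPL6B, RPL23A, RPL43B, RPL18B, RPL34A, RPL33B and RPL36B, off the raised chromosomes, were not called, at values from -0.20 to -0.08; of these the libraries of RPL43B did not overlap.

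Levels between genes were compared per kilobase of annotated gene span, which counts introns and so understates genes that have them. On this scale RPL41A, RPL3 and RPL32 were the highest in WT, at 7503, 5834 and 5181 CPM per kilobase. The lowest were RPL7B, RPL7A and RPL15B, at 86.0, 104 and 127. RPL41A spans only 78 bases, so its level on this scale is uncertain.

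The chromosome of a member went with its change. Of the 11 members on chromosomes VIII, IX and XI, edgeR called 0 lower and 1, RPL14B, higher, while 53 of the 69 members elsewhere were called lower and 1, RPL7B, higher. On those 3 chromosomes the lower count was also 0 at an unadjusted p under 0.05, and 0 with DESeq2 and limma-voom. The median log2 fold changes of the 2 sets were 0.09 and -0.42. Among all rows of these 3 chromosomes, 4.57% of 700 were called lower and 57.7% higher, against 29.6% and 19.0% of 4402 rows elsewhere. When these 3 chromosomes were left out of the fit, 49 of the 69 remaining members were called lower (edgeR).

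On chromosome VIII, RPL14B (YHL001W, chromosome VIII, 104277 to 105091) had 284, 236 and 265 CPM in WT and 458, 405 and 265 CPM in ten1-31 (log2 fold change 0.52, SE 0.19, edgeR adjusted p = 0.0477). Only ten1-31 replicates 1 and 2 were above WT, and replicate 3 lay within the WT range. The call was lost when any one library other than ten1-31 replicate 3 was left out, and with limma-voom or upper quartile scaling. RPL27A went from 1134, 1015 and 1212 CPM in WT to 1570.1, 1364 and 994 in the mutant, with replicates 1 and 2 above all WT libraries and replicate 3 below them, and was not called (log2 fold change 0.22, SE 0.16, edgeR adjusted p = 0.274). RPL27A was called higher without ten1-31 replicate 3, at 0.38 (edgeR adjusted p = 0.0356). RPL42B, one of the 3 members with the smallest change, had 644, 570.3 and 715 CPM in WT and 751, 654 and 494 CPM in ten1-31 (log2 fold change -0.02, SE 0.16, edgeR adjusted p = 0.913). Its mutant values lay on both sides of the WT mean. RPL8A was at -0.11.

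In ten1-31 replicate 3, where chromosome VIII as a whole was level with WT, RPL14B, RPL27A, RPL42B and RPL8A stood at 0.02, -0.17, -0.37 and -0.26 relative to the WT mean (log2 CPM). Chromosome IX was highest in that library, and its members were too: RPL16A, RPL34B and RPL40A stood at 0.15, -0.03 and 0.33, at 0.16, 0.04 and 0.39 and at 0.03, -0.07 and 0.30 in ten1-31 replicates 1, 2 and 3. RPL2B was lower, at -0.16, -0.31 and 0.02. The members on chromosome XI differed less between mutant libraries, with RPL17A at 0.15, 0.20 and 0.25 and RPL14A at 0.05, 0.01 and 0.12. RPL40B, which like RPL40A encodes its protein fused to ubiquitin, was at -0.11, -0.18 and -0.09.

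Against their own chromosome, 10 of these 11 members were low in every ten1-31 library, but all 11 were also low in WT replicate 2. With the median of the other genes of the chromosome taken off, their median deviation was -0.33, -0.37 and -0.25 in ten1-31 replicates 1, 2 and 3, and 0.11, -0.15 and 0.05 in WT. The exception was RPL14B, which stayed above the chromosome VIII median in all mutant libraries. RPL27A in ten1-31 replicate 1 and RPL34B in ten1-31 replicate 3 stood at -0.12 and -0.16. That was within the WT range, as WT replicate 2 stood at -0.14 and -0.17. This adjustment was chosen after the values were seen and is a description.

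**Figure D3:**
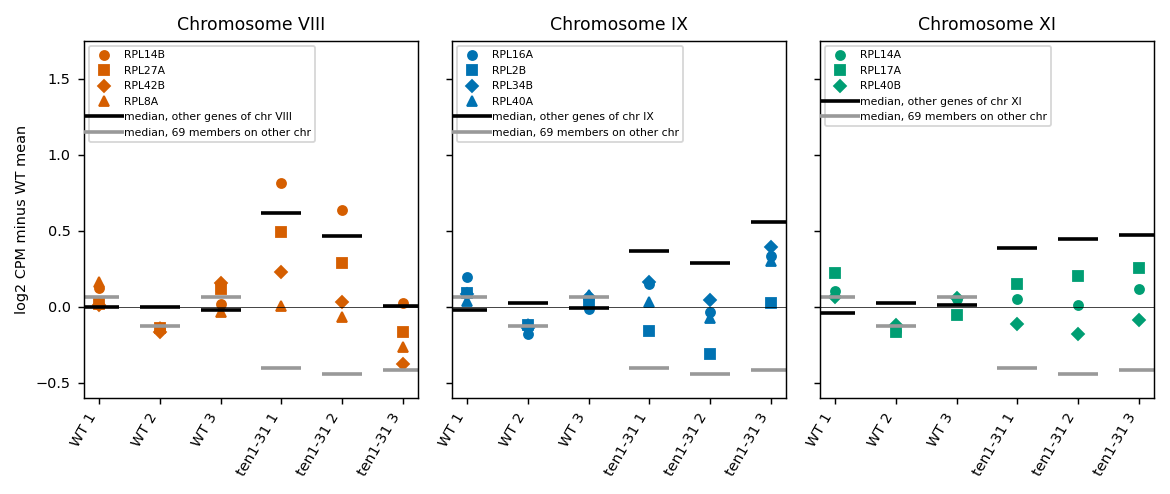
Log2 CPM minus the WT mean (y axis) in each library (x axis) for the 11 members on chromosomes VIII, IX and XI. Black bars are the median of the other genes on the same chromosome, grey bars the median of the 69 members elsewhere; in ten1-31 the coloured points of all members but RPL14B lie between the bars.

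The A and B copies were compared for the 34 pairs in which both have a row. The copies differed by a median of 0.32 in log2 fold change, and by up to 1.19. Both copies were called lower in 13 pairs and 1 copy, with the other not called, in 16. No copy was called in 3 pairs, and 2 pairs had a copy called higher. Over all single rows, 26.2% were called lower and 24.3% higher. Of the 11 members on chromosomes VIII, IX and XI, 0 were called lower, so no pair with a copy there had both copies called lower. The share of the pair's counts taken by the A copy did not overlap between genotypes in 29 pairs, including 22 of the 25 pairs with both copies off chromosomes VIII, IX and XI. For scale, the levels of 31.6% of all rows separated the genotypes downwards and those of 29.0% upwards, and no such share was computed for ratios of other gene pairs. Copies with near-identical sequence can exchange reads, and how such reads were counted is not stated in the labels.

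The widest split was that of RPL7A and RPL7B, whose protein lies near the 5S particle. RPL7A (YGL076C, chromosome VII, 364335 to 365996) had 176, 163 and 179 CPM in WT and 116, 109 and 121 CPM in ten1-31 and fell (log2 fold change -0.58, SE 0.07, edgeR adjusted p = 0.000557). RPL7B (YPL198W, chromosome XVI, 173152 to 174702) had 132, 133 and 136 CPM in WT and 219.6, 207 and 184 CPM in ten1-31 and rose (log2 fold change 0.61, SE 0.08, edgeR adjusted p = 0.000782). Neither gene's values overlapped between genotypes, and neither lies on chromosome VIII, IX or XI. RPL7A made up 57.1%, 55.2% and 56.9% of the pair's counts in WT and 34.5%, 34.5% and 39.7% in ten1-31. The exact permutation test on both sides gave p = 0.1, the minimum for 3 libraries per genotype, before any adjustment over the 34 pairs. The named pairs were picked for the widest difference between copies in these same libraries, so this test adds no support for a split. The pair's summed level did not separate the genotypes, at 306 ± 9.59 against 319 ± 15.7 CPM (SD, n = 3 per genotype). In WT that was the lowest sum of the 34 pairs, with RPL35 next at 527 CPM, and the reason was not tested. Each of these genes holds a small nucleolar RNA gene within its span, SNR39 in RPL7A and SNR59 in RPL7B, and they are the only members that overlap another RefSeq gene. Whether reads of those RNAs were counted was not tested.

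In the next widest pairs a copy on chromosome VIII or IX was set against one elsewhere. RPL27A made up 64.5%, 64.5% and 65.2% of its pair in WT and 78.5%, 76.6% and 69.3% in ten1-31, where RPL27B fell from 625, 557 and 647 to 429, 417 and 441 CPM (log2 fold change -0.51, SE 0.08, edgeR adjusted p = 0.00152). RPL16A, on chromosome IX, made up 34.2%, 30.8% and 31.6% in WT and 41.8%, 40.1% and 45.9% in ten1-31. RPL16B fell (log2 fold change -0.49, SE 0.07, edgeR adjusted p = 0.00123), while RPL16A went from 843, 649 and 728 CPM in WT to 816, 720.0 and 926 in the mutant, with overlap (log2 fold change 0.15, SE 0.13, edgeR adjusted p = 0.350). For both pairs the share of the A copy was higher in every mutant library than in every WT library. The exact permutation p was 0.1 for each, again the minimum, in pairs picked for this difference.

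The other named pairs have no copy on those chromosomes. RPL11A made up 54.6%, 54.7% and 55.4% of its pair in WT and 46.7%, 43.2% and 46.2% in ten1-31. RPL15A held nearly all counts of its pair in both genotypes, 97.7%, 97.4% and 97.8% in WT and 96.5%, 96.3% and 96.9% in ten1-31, as RPL15B was scarce. RPL15B had 70.9, 85.1 and 78.4 CPM in WT libraries and 58.4, 58.0 and 51.0 in the mutant. Its values did not overlap between genotypes, and it was called lower (log2 fold change -0.49, SE 0.10, edgeR adjusted p = 0.00430). For both pairs the A share was lower in every mutant library. The exact permutation p was again 0.1 for each, the minimum, in pairs picked for this difference. The narrowest pair was RPL4A and RPL4B, whose A share was 67.1% ± 0.271 in WT and 66.9% ± 0.412 in ten1-31 (SD, n = 3 per genotype).

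**Figure D4:**
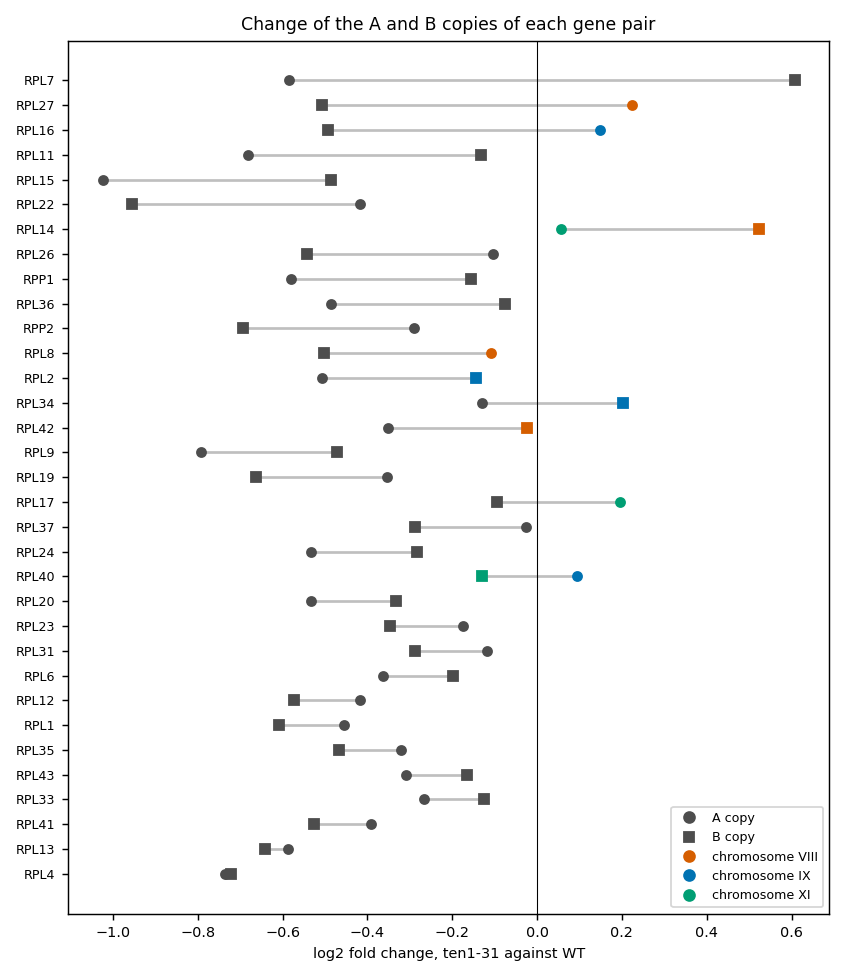
Log2 fold change (x axis, ten1-31 against WT) of the A copy (circle) and the B copy (square) of 33 of the 34 gene pairs, ordered by the distance between them. RPL7 spans both sides of 0 with copies on unmarked chromosomes; in the 6 other pairs that reach above 0 the copy on the right is on chromosome VIII, IX or XI.

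Summed over its copies, the transcript level of a protein was lower in ten1-31 for 28 of the 34 pairs. For 24 of these the libraries did not overlap. For scale, 31.6% of all single rows separated the genotypes downwards and 29.0% upwards. The ratio of ten1-31 to WT of the pair sums had a median of 0.773. It ran from 0.497 for RPL15 to 1.17 for RPL14. Both copies of RPL14 are on a raised chromosome, XI for RPL14A and VIII for RPL14B. RPL14A itself was near 0, with 571, 475 and 549.9 CPM in WT and 549.5, 536 and 575 CPM in ten1-31 (log2 fold change 0.06, SE 0.09, edgeR adjusted p = 0.616). RPL37A, on chromosome XII, was near 0 too, with 662, 548 and 619 CPM in WT and 614, 589 and 594 CPM in ten1-31 (log2 fold change -0.03, SE 0.09, edgeR adjusted p = 0.822). Both genes overlapped between genotypes.

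The genes for the small subunit, the partner of the large one in the ribosome, were set beside them. Of 54 tested, 37 were called lower and 1 higher (68.5% and 1.85%), beside 26.2% and 24.3% of all rows. The median of the 54 was -0.36, the same to 2 decimals as the large subunit genes. Of the small subunit genes on chromosomes VIII, IX and XI, 1 of 6 was called lower, against 36 of 48 elsewhere. Among all rows, 4.57% were called lower on those chromosomes and 29.6% elsewhere. No test of a difference between the subunits was made.

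Of 14 listed regulators of ribosomal protein genes, 12 had a row, and 4 were called lower and 2 higher (33.3% and 16.7%). With so few genes these shares were near those of all rows, 26.2% and 24.3%, and no result about the regulators as a list is read from them. The 4 lower ones were CRF1, a corepressor acting through Fhl1, at -1.12 (edgeR adjusted p = 0.0134), TBF1 at -0.48, the high mobility group protein gene HMO1 at -0.38 (edgeR adjusted p = 0.00632) and ABF1 at -0.30. CRF1 was scarce, with 7.22 ± 1.55 against 3.34 ± 1.18 CPM (SD, n = 3 per genotype, WT first). RAP1 and FHL1 were not called, at -0.06 and -0.14 (edgeR adjusted p = 0.578 and 0.257). The higher ones, the TOR pathway genes SCH9 and KOG1, both lie on chromosome VIII, at 0.62 and 0.76 (edgeR adjusted p = 0.0230 and 0.00632). In ten1-31 replicate 3, where chromosome VIII was level with WT, SCH9 had 219 CPM, within the WT range, and KOG1 had 132 CPM, below the other mutant libraries and above WT. IFH1 and SFP1 are not analysed here.

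Among 18 listed assembly factors and chaperones of the large subunit, 3 were called lower and 2 higher (16.7% and 11.1%, both below the 26.2% and 24.3% of all rows), with a median of -0.07. TIF6, which keeps the immature subunit from joining the small one, was at -0.52 (edgeR adjusted p = 0.00146), RLP7 at -0.51 and BCP1, the chaperone of Rpl23, at -0.39. Those called higher, the Rpl10 chaperone gene SQT1 and YVH1, for a phosphatase that helps mature the stalk, are both on chromosome IX, at 0.39 and 0.43. RRB1, whose product escorts Rpl3, was not called, at -0.24 (edgeR adjusted p = 0.188), beside -1.05 for RPL3 itself.

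Some general stress genes rose in the mutant. Of 15 listed, 13 had a row, of which edgeR called 7 higher (53.8%, beside 24.3% of all rows) and 0 lower, and 0 were lower at an unadjusted p under 0.05 or with DESeq2 or limma-voom. The small heat shock protein gene HSP26 rose most, by 2.02 (edgeR adjusted p = 0.00230), and HSP12, HSP104 and the glycogen synthase gene GSY2 rose by 0.86, 0.76 and 1.01 on the log2 scale. Of the 13, 6 were not called, among them TPS2 at 0.08 and CTT1 at 0.28 (edgeR adjusted p = 0.758 and 0.115). Without WT replicate 2 all 13 were called higher, and without WT replicate 3 or ten1-31 replicate 2 only 4 were. Over all rows, 2591 were called in either direction with all libraries, and 2596, 1887 and 1824 in those fits, in the same order. The summed level of the 13 stress genes was 2339, 4735 and 3510.0 CPM in WT replicates 1, 2 and 3 and 6294, 6499 and 6183 CPM in ten1-31. The summed level of the large subunit genes was 84173, 73393 and 82401 CPM in WT and 61035, 58047 and 60321 CPM in ten1-31. WT replicate 2 was thus the WT library nearest to the mutant in both sums. The part of stress in the fall of the large subunit genes was not tested.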

How the data were processed

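RNA-seq of rRNA-depleted total RNA from 3 WT and 3 ten1-31 samples was used. The 12 ChIP-seq samples of the series are not analysed here. The authors deposited read counts per gene in 1 table, read as counts because the values are whole numbers with different library totals. Per the labels' protocols, libraries were made with a strand-specific kit. TopHat2, Bowtie2, featureCounts, cutadapt, Trimmomatic and FastQC and the build R64 (sacCer3) are named in the submitters' processing notes, without versions or roles. Strand setting, annotation, row filter and the treatment of reads that map to several genes are not given in the sources used here. The build of the notes is that of the RefSeq gene table (R64, strain S288C), which gave symbols and coordinates; 5112 of 5143 rows matched. A systematic name repeated on several rows occurred in 8 rows, kept apart and unnamed; none is a member. All per-sample columns were used, and 0 rows held a count of 0 in any library.

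All rows were fitted with the edgeR 4.0.16 quasi-likelihood test in R 4.3.3 (TMM scaling, filterByExpr with minimum count 10 and minimum total 15, genotype only, Benjamini-Hochberg adjustment over 5133 rows, threshold 0.05). SE is the log2 fold change over the square root of F. Log2 CPM for chromosome and library deviations used a prior count of 2, and a chromosome was called raised where its median exceeded 0.25 in any library. The shares of gene copies were compared by exact permutation over libraries. Alternatives were other scalings, filters, DESeq2 1.42.0, limma-voom (limma 3.58.1), a replicate block, leaving out each library or the raised chromosomes, and other thresholds. On simulated counts of this comparison (5133 rows), the fit called 145 of 200 genes given a 1.5-fold change, and 6.45% of its calls were false. The simulation changed only those 200 rows and shifted no whole chromosome. In the data 2591 rows were called, so these shares need not hold there. No 2 replicate libraries agreed within sampling noise (chi-square per degree of freedom of at least 5.33).

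Genes named were members called higher, the 6 largest falls, the stalk genes, RPL3, RPL4A, RPL4B, RPL5, RPL10, RPL11A and RPL11B, the 5 pairs whose copies differed most and the 3 smallest changes; others were named after their values were seen. A member that is not reported here by name is included in all counts. The members and lists were chosen with earlier results of these data known, and the tunnel and centre groups and the set of raised chromosomes after seeing these values.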

Additional observations from a re-analysis of the deposited data

How the results depend on the processing

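The count of members called lower was 53 with the reported settings. It stayed between 46 and 56 under the other scalings, row filters, DESeq2, limma-voom and the omission of chromosomes VIII and IX, and was 49 without chromosomes VIII, IX and XI, an alternative added after seeing the data. It ranged from 38 to 63 with single libraries left out, was 42 at an adjusted p under 0.01, and was 14 when at least a 1.5-fold change was required, smaller by construction. Calls over all rows, in either direction, were 2591 as reported and ran from 1824 to 2974 with single libraries left out. They were 1660 at the stricter p and 948 with the fold requirement. The 46 came with library size as the only scaling, where the median over all rows was 0.08. The median of the members was negative in every fit, from -0.42 to -0.28.

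Members called higher numbered 2 as reported and 1 with upper quartile scaling, limma-voom, a stricter p, the 1.5-fold requirement, or chromosomes VIII and IX (with or without XI) left out, where RPL14B was not tested. With library size only they numbered 3, and with single libraries left out 1 to 3. RPL7B kept its call in all 17 fits run for it, with edgeR, DESeq2 or limma-voom adjusted p-values up to 0.00687. RPL14B ranged from 0.35 to 0.71 and passed in 8 of 15 fits (adjusted p up to 0.161).

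Signs changed for 3 genes near 0 among the 26 named. RPL42B was at 0.055 with library size only and ran from -0.17 to 0.12 with single libraries left out. RPL37A was at 0.056 with library size only, 0.0084 without chromosomes VIII and IX and 0.018 without VIII, IX and XI, and ran from -0.098 to 0.037 with single libraries left out. RPL14A ran from -0.019 to 0.11 with single libraries left out. The cause was not tested.

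Nothing in the labels says that a replicate number links a WT library with a mutant one. Deviations from the group mean correlated between libraries of equal number at 0.20, 0.21 and 0.087, not all above 0.1, so no pairing was used. Each library correlated best with that of its own number, which is a hint from the data and not from the design. With the replicate number as a block, 52 members were called lower and 2 higher. Depth limits no member. RPL21A was not tested, and precision rests on 3 libraries per genotype.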
